A study of Mus musculus with 32 samples.

Results

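RNA on the ribosomes of cochlear supporting cells was compared between 24 h and 6 h after noise, in 3 libraries at 24 h and 2 libraries at 6 h. These 5 are the noise-exposed pull-down libraries of the Sox2 strain, out of 32 libraries in the series, and all 43947 genes of their expression files were considered. The mice were 10 weeks old, carried Sox2Cre/+;RiboTagHA/+ (given in the series text as Sox2CreERT2;RiboTag;CBA) and heard 105 dB SPL for 2 h. Cochleae were taken 24 h or 6 h later. Pull-down libraries of unexposed mice of the same genotype and age (2 libraries) gave a level to read the others against and entered the estimate of the spread, but not the difference, and all 3 groups carry the tagged allele. For tests of difference, whole-cochlea RNA from the same homogenates (3 libraries at 24 h, 2 at 6 h) and the outer hair cell pull-down of the Prestin strain (3 libraries at each time) were used. The Prestin mice were also 10 weeks old, and those exposed heard 105 dB SPL for 2 h. Unexposed libraries of both materials (2 of whole cochlea, 3 of the outer hair cell pull-down) entered the spread but not the difference. RiboTag adds an HA tag to Rpl22, a protein of the large ribosomal subunit, in cells in which Cre was active. Sox2 is also known from glia of the cochlear nerve, so the material is enriched for supporting cells rather than pure.

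Supporting cells surround the sensory hair cells, take up potassium, make part of the tectorial membrane and help to clear dying hair cells. Acute injury is known in many tissues to set off responses of different speed. Immediate early genes such as Fos and Egr1 are induced within minutes, partly through serum response factor, and their short-lived mRNAs are removed by decay factors such as Zfp36. Interferon-stimulated genes follow a secreted interferon, through STAT2 and IRF9 among other factors at the interferon-stimulated response element (ISRE) of their promoters.

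The files give TPM, a length-scaled share of each library that sums to 1000000 and keeps no read depth. Fold changes are 24 h against 6 h on the log2(TPM + 1) scale with the standard error of the fit, which understates changes of low genes. A gene is called where limma's Benjamini-Hochberg adjusted p was under 0.05. The 6 h libraries listed fewer genes above 0, with 20434, 18905 and 20079 at 24 h against 16813 and 16537 at 6 h, and 19230 and 17395 without noise. The share of TPM from mitochondrially encoded genes was 3.63% to 5.80% at 24 h, 7.21% and 8.83% at 6 h, and 3.07% and 4.35% without noise. The part of these differences in the results was not tested. Pearson's r across genes on the log2 scale was 0.855 to 0.867 among the 24 h libraries and 0.780 between the 6 h libraries. The median gene differed by 0.20 (log2), and by 0.06 after median-of-ratios scaling. Nothing in the labels ties the libraries to single animals beyond the words biological triplicates, so p-values measure the spread between these libraries.

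Sox2, the gene whose Cre line marks the cells, had 280, 434 and 385 TPM at 24 h, against 259 and 310 TPM at 6 h, and 654 and 320 TPM without noise. The 24 h and 6 h values overlap, and the difference of 0.35 ± 0.35 did not pass (limma adjusted p = 0.701). In the whole cochlea Sox2 had 34.8, 36.4 and 33.0 TPM at 24 h, against 34.1 and 38.6 TPM at 6 h. All 22 genes of the supporting cell marker list were above 0 in all 5 libraries. Their sum was 8278 to 10819 TPM at 24 h and 7941 and 8060 TPM at 6 h in the pull-down, and 3941 to 4299 TPM at 24 h and 3135 and 3393 TPM at 6 h in the whole cochlea. Rpl22 had 87.1, 93.5 and 90.2 TPM at 24 h, against 121 and 134 TPM at 6 h (−0.49 ± 0.13, limma adjusted p = 0.219). Schwann and satellite glia markers summed to 6717 to 10606 TPM at 24 h and 8936 and 10503 TPM at 6 h in the pull-down, and to 2944 to 4047 TPM at 24 h and 4159 and 4537 TPM at 6 h in the whole cochlea. Markers of supporting cells and of glia were thus both higher in the pull-down than in the whole cochlea.

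Of 16680 genes tested, 95 were called higher at 24 h (0.570%) and 17 were called lower (0.102%). Among the lower genes were Fos, Egr1, Junb, Klf4 and Atf3, transcription factors of the immediate early response, and Gdf15, a secreted stress hormone. Among the higher genes were Cxcl10 and Ccl12, which attract leukocytes, and interferon-induced genes such as Ifit3, together with many genes listed at 0 in both 6 h libraries. At an unadjusted p under 0.05, 1787 genes were higher (10.7%) and 380 were lower (2.28%), and after median-of-ratios scaling 1205 were higher and 792 lower. The calls rest on few libraries: without replicate 4 at 6 h there were 12 higher and 0 lower, and without replicate 2 at 6 h there were 66 higher and 6 lower. Without replicate 1, 2 or 3 at 24 h the called genes numbered 31, 48 and 62 in all. Of these, 19, 22 and 29 were among the 112 called with all libraries. The calls also rest on the spread of the unexposed libraries, the lower ones most. The 5 noise libraries alone gave 90 higher and 3 lower, with 54 of the 112 genes among them and 2 of the 17 lower genes among the 3. Without unexposed replicate 1 or 4, 3 and 5 genes were lower. None of the 112 called genes changed sign under the alternatives run. For genes without overlap between the times, leaving out a library or changing the pseudocount could not have reversed the sign. In all 17 lower genes the unexposed libraries were nearer to the 24 h level than to the 6 h level. Of the 95 higher genes, 39 had unexposed libraries nearer to 6 h and 56 had them nearer to 24 h. Over all 16680 genes tested these were 6633 and 10047, a similar split.

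**Figure D1:**
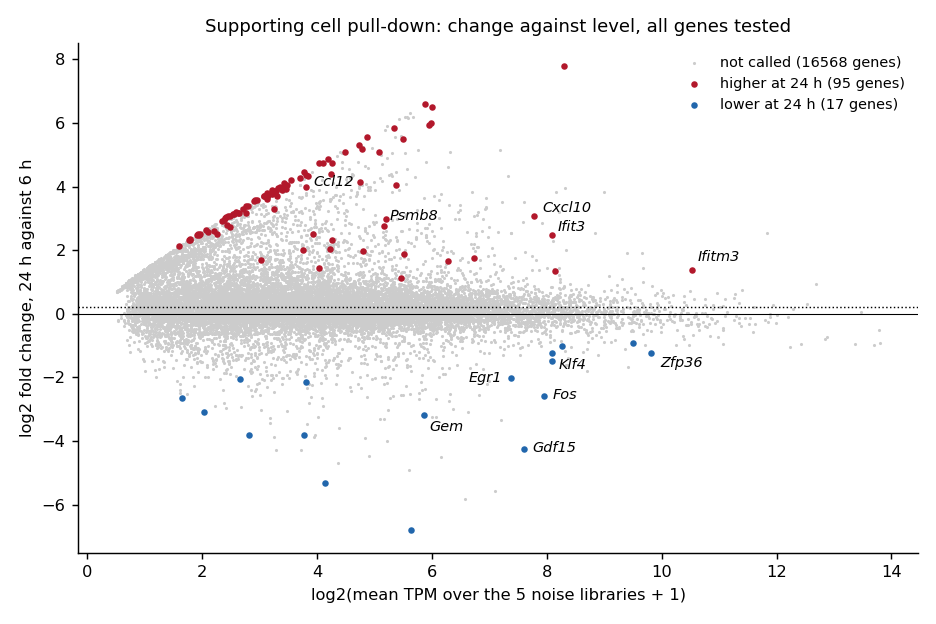
Log2 fold change, 24 h against 6 h (vertical axis), against log2 of the mean TPM over the 5 noise libraries plus 1 (horizontal axis), for 16680 genes. Red points are the 95 genes called higher at 24 h, blue points the 17 called lower, grey points the rest, and the dotted line is the median of 0.20. Many red points lie on the upper edge, where both 6 h libraries are at or near 0, while Cxcl10, Ifit3, Fos and Gdf15 lie at higher levels.

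Immediate early genes were lower at 24 h. Of 25 members, all tested, 5 were called lower and 0 higher, all 25 fold changes were negative, and 17 members lay below both 6 h libraries in every 24 h library, against 7.77% of all genes. The median fold change was −1.17, against 0.20 for all genes. It was −0.70 without replicate 4 at 6 h.

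Fos, a subunit of the AP-1 transcription factor (chr12:85473890-85477273, plus strand, GRCm38), had 76.5, 74.0 and 83.7 TPM at 24 h, against 327 and 671 TPM at 6 h, and 88.0 and 109 TPM without noise. The 24 h libraries lay close together and below the unexposed ones, and both 6 h libraries lay far above. The fold change was −2.57 ± 0.31 (limma adjusted p = 0.0441). Over 13 alternatives it ranged from −3.09 to −2.05, and it was called in 5. Egr1, a zinc finger transcription factor, had 70.3, 74.5 and 72.1 TPM at 24 h, against 238 and 376 TPM at 6 h, and 106 and 119 TPM without noise (−2.03 ± 0.21, limma adjusted p = 0.0384). As for Fos, its 24 h libraries lay below the unexposed ones.

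The other called members did not go below the unexposed level. Junb, another AP-1 subunit that overlaps Prdx2 on the other strand, had 187, 171 and 168 TPM at 24 h, against 363 and 469 TPM at 6 h, and 122 and 105 TPM without noise (−1.23 ± 0.17, limma adjusted p = 0.0483). Klf4, a zinc finger factor of the Krüppel-like family, had 154, 157 and 159 TPM at 24 h, against 379 and 509 TPM at 6 h, and 120 and 163 TPM without noise (−1.48 ± 0.20, limma adjusted p = 0.0470). For Klf4 the 24 h values fell between the unexposed libraries, and for Junb they lay above both. Atf3, a stress-induced factor of the ATF family, had 1.72, 1.86 and 1.85 TPM at 24 h, against 10.2 and 11 TPM at 6 h, and 0.197 and 0.301 TPM without noise (−2.05 ± 0.26, limma adjusted p = 0.0441). It was low at both times, and at 24 h it still exceeded both unexposed libraries.

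Genes that dampen MAP kinase signals or hasten mRNA decay showed the same direction in fewer members. Of 17 tested, 1 was called lower and 0 higher, and the median was −0.41. Below both 6 h libraries lay 10 of the 17, against 7.77% of all genes. The called member, Zfp36, which directs mRNAs with AU-rich elements to decay, had 629, 531 and 608 TPM at 24 h, against 1341 and 1407 TPM at 6 h, and 544 and 552 TPM without noise (−1.22 ± 0.14, limma adjusted p = 0.0430). Its 24 h and unexposed libraries overlap. Dusp1, a MAP kinase phosphatase, had 49.2, 55.8 and 52.2 TPM at 24 h, against 106 and 139 TPM at 6 h, and did not pass (−1.20 ± 0.21, limma adjusted p = 0.0982). Errfi1, an inhibitor of EGF receptor signalling counted here in the glucocorticoid list, had 223, 212 and 221 TPM at 24 h, against 408 and 472 TPM at 6 h, and 212 and 217 TPM without noise (−1.0 ± 0.13, limma adjusted p = 0.0449). It was the 1 called gene among 15 of that list, whose median was −0.34.

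RefSeq promoters (GRCm38.p6, 250 bases before to 50 after the start, matched for 10909 of 16678 tested symbols) were searched on both strands for binding motifs, with overlaps allowed. Zfp36 (chr7:28379179-28379478, minus strand) and Atf3 (chr1:191183284-191183583, minus strand) are shown because they are called early genes whose windows hold a motif of a known stress or growth factor response. Capitals mark a CArG box, the site of serum response factor, and a GAS motif (TTCNNNGAA, the site of STAT dimers) in Zfp36, and a CARE motif (TGATGCAA, the site of ATF4 with C/EBP proteins) in Atf3.
Zfp36: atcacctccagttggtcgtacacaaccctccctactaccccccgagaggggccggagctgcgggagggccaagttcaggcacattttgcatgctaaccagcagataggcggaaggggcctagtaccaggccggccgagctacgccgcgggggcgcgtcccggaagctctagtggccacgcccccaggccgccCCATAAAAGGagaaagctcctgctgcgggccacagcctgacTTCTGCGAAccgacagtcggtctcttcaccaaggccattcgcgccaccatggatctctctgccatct
Atf3: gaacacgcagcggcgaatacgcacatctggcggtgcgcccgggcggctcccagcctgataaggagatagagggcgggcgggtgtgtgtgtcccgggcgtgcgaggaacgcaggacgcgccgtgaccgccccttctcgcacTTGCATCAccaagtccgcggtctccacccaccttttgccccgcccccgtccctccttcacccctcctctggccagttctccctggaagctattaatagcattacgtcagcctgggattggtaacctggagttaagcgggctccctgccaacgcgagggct
The CArG box lay 58 bases and the GAS motif 17 bases before the start of Zfp36, and the CARE motif lay 110 bases before that of Atf3. A CArG box was found in 4 of 26 promoters of the immediate early list (15.4%), against 1.30% of the 13858 promoters of tested genes. The 26 promoters belong to 20 genes and the 13858 to 10909, so a gene with several promoters counts more than once. The windows of Fos, Junb, Klf4 and Gdf15 held none of the motifs searched. Sites more than 250 bases before the start, or with other letters than the motifs, were not searched.

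Gdf15, a hormone of the TGF-beta family that is released by stressed cells (chr8:70629393-70632456, minus strand), had 11.4, 28.5 and 30.9 TPM at 24 h, against 326 and 570 TPM at 6 h, and 6.71 and 12 TPM without noise. The 6 h mean was 19.0 times the 24 h mean, and 2 of the 3 libraries at 24 h were above both unexposed ones. The fold change was −4.25 ± 0.51 (limma adjusted p = 0.0441), with −4.65 to −3.82 over 13 alternatives, of which 4 called it. Gdf15 was the 1 called gene among 19 tested of the integrated stress response list, and the list's median was −0.15. Chac1, which breaks down glutathione and belongs to the same list, had 20.7, 20.1 and 21.8 TPM at 24 h, against 4.49 and 3.56 TPM at 6 h, and did not pass (2.13 ± 0.36, limma adjusted p = 0.0898). Its values stood in the opposite direction to those of Gdf15.

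Gem, a small GTPase that restrains calcium channels, had 8.72, 10.4 and 18 TPM at 24 h, against 77.3 and 171 TPM at 6 h, and 2.23 and 2.22 TPM without noise (−3.18 ± 0.43, limma adjusted p = 0.0483). Epha2, a receptor tyrosine kinase for ephrins, had 3.92, 5.10 and 5.60 TPM at 24 h, against 21.4 and 29.3 TPM at 6 h, and 2.03 and 1.93 TPM without noise (−2.16 ± 0.26, limma adjusted p = 0.0441). Both genes fell and still exceeded both unexposed libraries at 24 h.

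For 3 named falls all 24 h and all unexposed libraries are listed at 0, so no fold is given. Cxcr6, the receptor of Cxcl16, had 5.55 and 9.86 TPM at 6 h (limma adjusted p = 0.0436) and overlaps Fyco1 on the other strand. Apom, a lipocalin carried on lipoproteins, had 4.38 and 6.23 TPM at 6 h (limma adjusted p = 0.0441). Tmem262, which overlaps Zfpl1 on the other strand, had 7.16 and 23.1 TPM at 6 h (limma adjusted p = 0.0468). Whether the counting used strand is not given in the sources used here. Cxcr6 is best known from T and NK cells. The list of T, B and NK cell markers summed to 4.95, 4.02 and 5.85 TPM at 24 h and to 9.97 and 9.08 TPM at 6 h, with Cd3d, Nkg7, Gzmb and Ptprcap at 0 in all 5 libraries.

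Interferon-stimulated genes were higher at 24 h. Of 31 members 30 were tested, 3 were called higher and 0 lower, all 30 fold changes were positive, and 29 lay above both 6 h libraries in every 24 h library, against 24.9% of all genes. The median was 1.47, against 0.20 for all genes, and 1.30 after median-of-ratios scaling, where 0 members were called. In all 30 the unexposed libraries were nearer to the 6 h level, against 6633 of all 16680 genes tested.

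Ifit3, an antiviral protein that binds foreign RNA together with its relatives, had 353, 521 and 330 TPM at 24 h, against 52.4 and 95.1 TPM at 6 h, and 81.7 and 110 TPM without noise (2.46 ± 0.33, limma adjusted p = 0.0483). Ifitm3, a membrane protein that blocks virus entry, had 1918, 2095 and 1854 TPM at 24 h, against 826 and 695 TPM at 6 h, and 478 and 425 TPM without noise (1.36 ± 0.15, limma adjusted p = 0.0430). Ifit3 at 6 h was at the unexposed level or near it, whereas Ifitm3 at 6 h already lay above both unexposed libraries. Parp14, an ADP-ribosyltransferase, had 22.1, 18.8 and 21.9 TPM at 24 h, against 6.91 and 7.2 TPM at 6 h, and 7.2 and 6.80 TPM without noise (1.44 ± 0.18, limma adjusted p = 0.0447). Stat2, a transducer of type I interferon signals, had 45.2, 51.1 and 44.9 TPM at 24 h, against 21.8 and 19.9 TPM at 6 h, and missed the threshold (1.14 ± 0.16, limma adjusted p = 0.0560). Ifit3 was called in 1 of 13 alternatives and Ifitm3 in 6 of 13. Ifi44l, an interferon-induced gene outside the list, had 7.72, 7.56 and 5.91 TPM at 24 h, is listed at 0 in both 6 h libraries, and had 0.168 and 0 TPM without noise (limma adjusted p = 0.0297).

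Cxcl10, a chemokine for T cells (chr5:92346638-92348889, minus strand), had 409, 383 and 220 TPM at 24 h, against 36.7 and 38.3 TPM at 6 h, and 10.1 and 14.5 TPM without noise. The 3 groups do not overlap, and the order was 24 h, 6 h, unexposed from high to low. The 24 h mean was 8.99 times the 6 h mean (3.08 ± 0.31, limma adjusted p = 0.0338), and 8 of 13 alternatives called it. It overlaps Art3 on the other strand. Ccl12, a chemokine for monocytes (chr11:82101845-82103400, plus strand), had 32.9, 22.2 and 9.94 TPM at 24 h and is listed at 0 in both 6 h and both unexposed libraries (limma adjusted p = 0.0436). These were the 2 called among 17 tested of 24 chemokines and cytokines. The list's median was 0.43, with 0.08 without replicate 1 at 24 h and 1.22 without replicate 4 at 6 h.

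Promoters of 4 called interferon-induced genes are shown because each holds the ISRE core (GAAANNGAA) before its start. Among the other promoters of named genes, that of Ifitm3 holds it after the start and that of Ccdc96, not known as an interferon gene, holds it 45 bases before. Capitals mark the motifs found, which besides the ISRE core are an NF-kB motif (GGGANTTCC) and an AP-1 motif (TGANTCA) in Cxcl10, an AP-1 motif in Ifit3 and GAS motifs in Gbp7. The windows are chr5:92348840-92349139 (minus strand) for Cxcl10, chr19:34583279-34583578 (plus strand) for Ifit3, chr3:142530086-142530385 (plus strand) for Gbp7 and chr3:151762842-151763141 (minus strand) for Ifi44l, all written in the direction of the gene.
Cxcl10: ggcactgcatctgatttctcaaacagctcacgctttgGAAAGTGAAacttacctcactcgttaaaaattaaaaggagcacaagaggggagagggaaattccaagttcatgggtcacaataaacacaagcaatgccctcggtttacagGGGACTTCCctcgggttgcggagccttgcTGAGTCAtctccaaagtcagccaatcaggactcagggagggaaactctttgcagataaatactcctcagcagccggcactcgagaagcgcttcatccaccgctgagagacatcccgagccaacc
Ifit3: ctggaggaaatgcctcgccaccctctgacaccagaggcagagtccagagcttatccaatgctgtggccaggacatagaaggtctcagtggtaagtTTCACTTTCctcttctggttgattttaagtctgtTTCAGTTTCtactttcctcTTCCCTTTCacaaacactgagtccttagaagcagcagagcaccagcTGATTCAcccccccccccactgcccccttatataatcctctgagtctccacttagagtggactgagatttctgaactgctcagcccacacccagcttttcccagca
Gbp7: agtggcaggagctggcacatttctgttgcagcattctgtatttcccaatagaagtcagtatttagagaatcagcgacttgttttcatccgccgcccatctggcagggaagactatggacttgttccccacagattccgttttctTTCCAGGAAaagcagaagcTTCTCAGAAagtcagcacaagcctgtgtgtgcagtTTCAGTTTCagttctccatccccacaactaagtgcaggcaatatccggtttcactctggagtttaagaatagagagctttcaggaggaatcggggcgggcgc
Ifi44l: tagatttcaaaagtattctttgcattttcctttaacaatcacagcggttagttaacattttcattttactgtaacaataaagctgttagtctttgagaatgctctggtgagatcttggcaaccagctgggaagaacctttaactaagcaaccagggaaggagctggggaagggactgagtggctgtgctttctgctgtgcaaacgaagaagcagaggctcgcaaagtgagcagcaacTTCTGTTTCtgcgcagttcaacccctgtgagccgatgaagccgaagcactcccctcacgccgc
The ISRE core began 213 bases before the start in Cxcl10, 155, 121 and 102 bases before it in Ifit3, 52 in Gbp7 and 13 in Ifi44l. It was found in 6 of 26 promoters of genes called higher (23.1%), in 0 of 14 promoters of genes called lower, and in 26 of 50 promoters of the interferon, GTPase and MHC lists (52.0%). It was also found in 4 of 26 promoters of the immediate early list (15.4%). Of all 13858 promoters, 6.94% held it. The 26 promoters of genes called higher cover only 26 of the 95 such genes. In these promoters the ISRE core was not the only motif above its share in all promoters. The AP-1 motif was in 5 of the 26 (19.2%), against 5.1% of all promoters. The GAS motif was in 4 (15.4%), against 6.7%. The CARE motif was in 0 and each other motif searched in 1.

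Interferon-inducible GTPases, which attack the vacuoles of intracellular microbes, were all positive, but few passed. Of 16 members 14 were tested, 1 was called higher and 0 lower, and the median was 1.17. Above both 6 h libraries lay 9 of the 14, against 24.9% of all genes. Gbp7 had 31.1, 25 and 21.3 TPM at 24 h, against 4.22 and 6.84 TPM at 6 h, and 8.27 and 9 TPM without noise (2.05 ± 0.27, limma adjusted p = 0.0461). It overlaps Gm43802 on the same strand and was called in 1 of 13 alternatives. Among antigen presentation genes, 20 of 21 were tested, 1 was called higher and 0 lower, 14 lay above both 6 h libraries, and the median was 0.69. Psmb8, a catalytic subunit of the immunoproteasome, had 41.4, 58.2 and 61.3 TPM at 24 h, against 8.83 and 5.43 TPM at 6 h, and 8.96 and 13.6 TPM without noise (2.76 ± 0.31, limma adjusted p = 0.0430). Psmb10, another such subunit, had 121, 195 and 132 TPM at 24 h, against 40.8 and 28.3 TPM at 6 h, and did not pass (limma adjusted p = 0.0646). With median-of-ratios scaling neither list had a call.

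**Figure D2:**
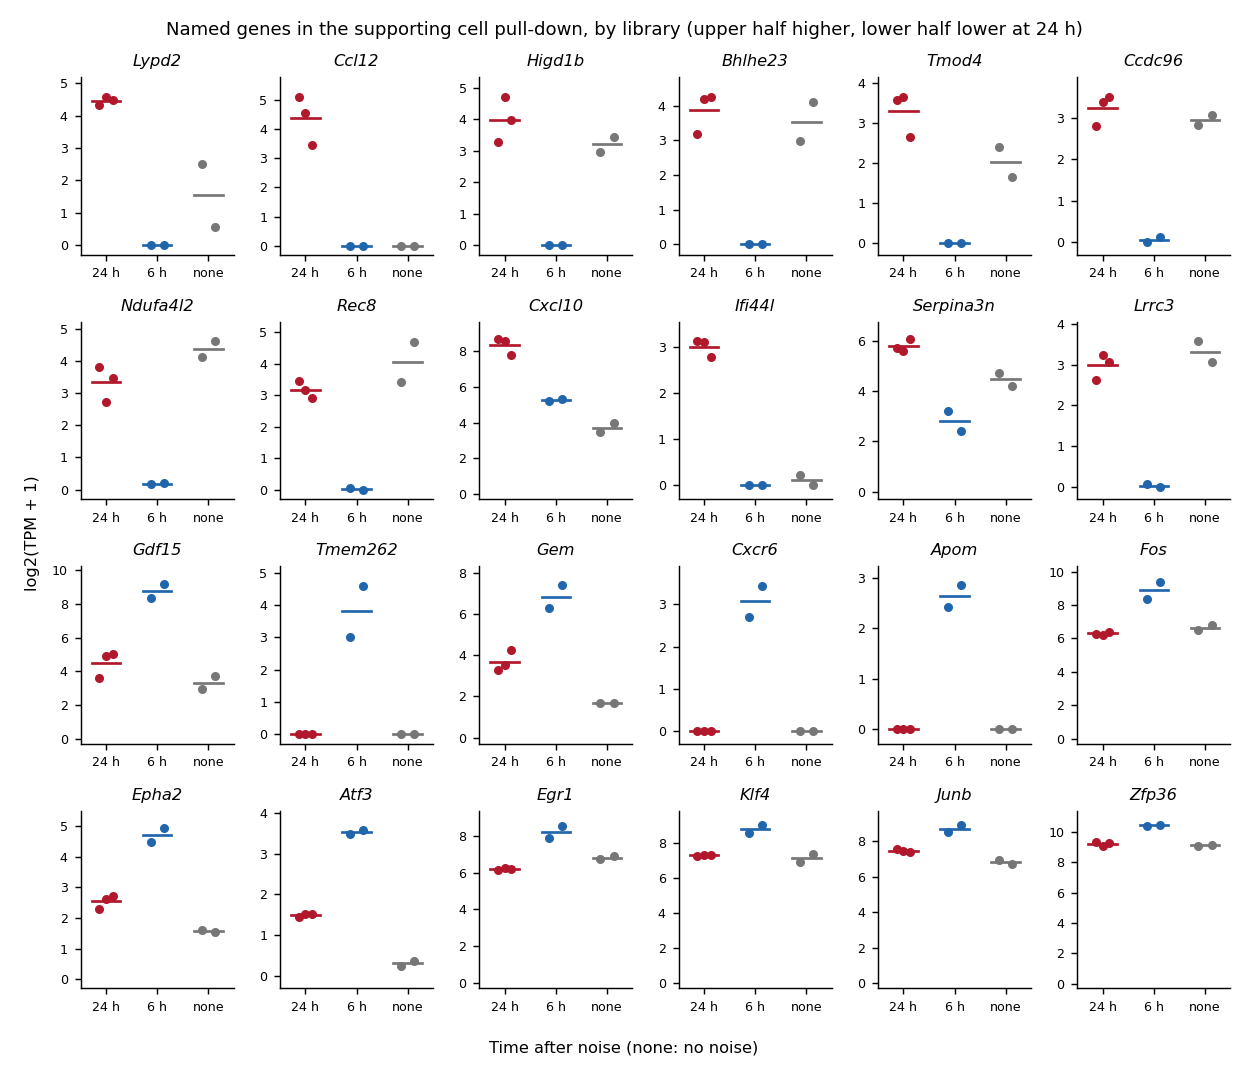
log2(TPM + 1) in each library for the 12 largest called rises (upper rows) and the 12 largest called falls (lower rows) with a mean of at least 5 TPM, predicted genes, pseudogenes and small RNAs left out, with 24 h in red, 6 h in blue and no noise in grey. Each point is a library and the bar is the group mean. Cxcl10, Ccl12 and Ifi44l are highest at 24 h, Higd1b, Rec8 and Lrrc3 are low at 6 h alone, and Gdf15, Fos and Atf3 are high at 6 h.

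Serpina3n, a secreted protease inhibitor that reactive glia make, had 51.9, 47.1 and 66.7 TPM at 24 h, against 8.26 and 4.27 TPM at 6 h, and 25.5 and 17.4 TPM without noise (2.99 ± 0.32, limma adjusted p = 0.0392). Both the 24 h and the unexposed libraries exceeded the 6 h ones, and 8 of 13 alternatives called it. It was the 1 called gene of 19 tested in the STAT3 and acute phase list, whose median was 0.01 and −0.16 after median-of-ratios scaling. In the same list Tnfrsf12a, the receptor of TWEAK, had 295, 467 and 341 TPM at 24 h, against 1048 and 1270 TPM at 6 h, without passing (−1.67 ± 0.25, limma adjusted p = 0.0699). Tnfaip2, a TNF-induced gene, had 8.36, 5.54 and 8.49 TPM at 24 h, against 0.595 and 0 TPM at 6 h, and 1.28 and 2.26 TPM without noise (2.72 ± 0.37, limma adjusted p = 0.0486). It was the 1 called gene of 16 tested in the NF-kB list, and 0 of 12 alternatives called it.

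Several of the named rises were genes near 0 at 6 h and present without noise. Higd1b, a mitochondrial protein of the hypoxia-inducible domain family known from pericytes, had 8.73, 25.2 and 14.9 TPM at 24 h, is listed at 0 in both 6 h libraries, and had 6.84 and 9.83 TPM without noise (limma adjusted p = 0.0430). Bhlhe23, a basic helix-loop-helix factor, had 8.08, 17.1 and 18 TPM at 24 h, is listed at 0 in both 6 h libraries, and had 6.91 and 16.1 TPM without noise (limma adjusted p = 0.0441). Tmod4, a muscle tropomodulin, had 10.9, 11.5 and 5.26 TPM at 24 h, is listed at 0 in both 6 h libraries, and had 4.27 and 2.14 TPM without noise (limma adjusted p = 0.0460). For these genes the 6 h libraries were the ones that stood apart. Rec8, a meiotic cohesin subunit, had 9.93, 7.93 and 6.44 TPM at 24 h, against 0.0350 and 0 TPM at 6 h, and 9.66 and 24.9 TPM without noise (limma adjusted p = 0.0483). Ndufa4l2, a mitochondrial protein that overlaps Shmt2 on the other strand, had 13.1, 5.66 and 9.99 TPM at 24 h, against 0.118 and 0.143 TPM at 6 h, and 16.2 and 23.4 TPM without noise (limma adjusted p = 0.0441). Ccdc96 and Lrrc3 showed the same order, with 5.16 to 10.4 TPM at 24 h, at most 0.0871 TPM at 6 h, and 6.12 to 10.9 TPM without noise. Lypd2, a protein of the Ly6 family, had 19.0, 22.9 and 21.5 TPM at 24 h, is listed at 0 in both 6 h libraries, and had 4.68 and 0.470 TPM without noise (limma adjusted p = 0.0441).

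The called genes differed in kind. Of the 95 higher genes, 34 were protein-coding (35.8%), 29 pseudogenes, 26 long noncoding or unclassified RNAs and 6 small or other RNAs, whereas 78.9% of all tested genes were protein-coding. Of the 95, 51 are listed at 0 in both 6 h libraries. Among all tested genes 1020 are so listed, against 12 listed at 0 in all 3 libraries at 24 h. These counts are not alike in kind, since the filter of 1 TPM in 2 libraries lets the first through on any 2 of 3 libraries and the second only on both of 2. Of the 17 lower genes, 14 were protein-coding. Rpl18, a ribosomal protein gene with many pseudogene copies that can share its reads, had 17.6, 18.7 and 18.2 TPM at 24 h, against 3.40 and 4.23 TPM at 6 h (2.00 ± 0.24, limma adjusted p = 0.0441). It was the 1 called of 22 cytosolic ribosomal protein genes, whose median was 0.00.

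The remaining response lists had no called member at adjusted p under 0.05 in limma. Of all genes tested, 0.570% were called higher and 0.102% lower. For cholesterol synthesis, 0 of 20 were called and 8 were lower at an unadjusted p under 0.05, 10 lay below both 6 h libraries, and the median was −0.54. Matrix and wound genes (20 tested) had 8 members below and 4 above both 6 h libraries and a median of −0.29. Heat shock genes (16 tested) had 6 below and 0 above, and a median of −0.19. Over all genes tested, 24.9% lay above and 7.77% below both 6 h libraries, and 2.28% were lower at an unadjusted p under 0.05. The unfolded protein, p53, NRF2, clock, cell cycle, Notch, complement, respiratory chain and glial reactivity lists had medians between −0.12 and 0.30, against 0.20 for all genes. Such a median can hide members that moved in opposite directions. In the clock list (18 tested), 6 members lay above and 7 below both 6 h libraries. At an unadjusted p under 0.05 in limma, 4 clock genes were higher and 2 lower. In the NRF2 list (16 tested), 4 lay above and 4 below. The cause was not tested.

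**Figure D3:**
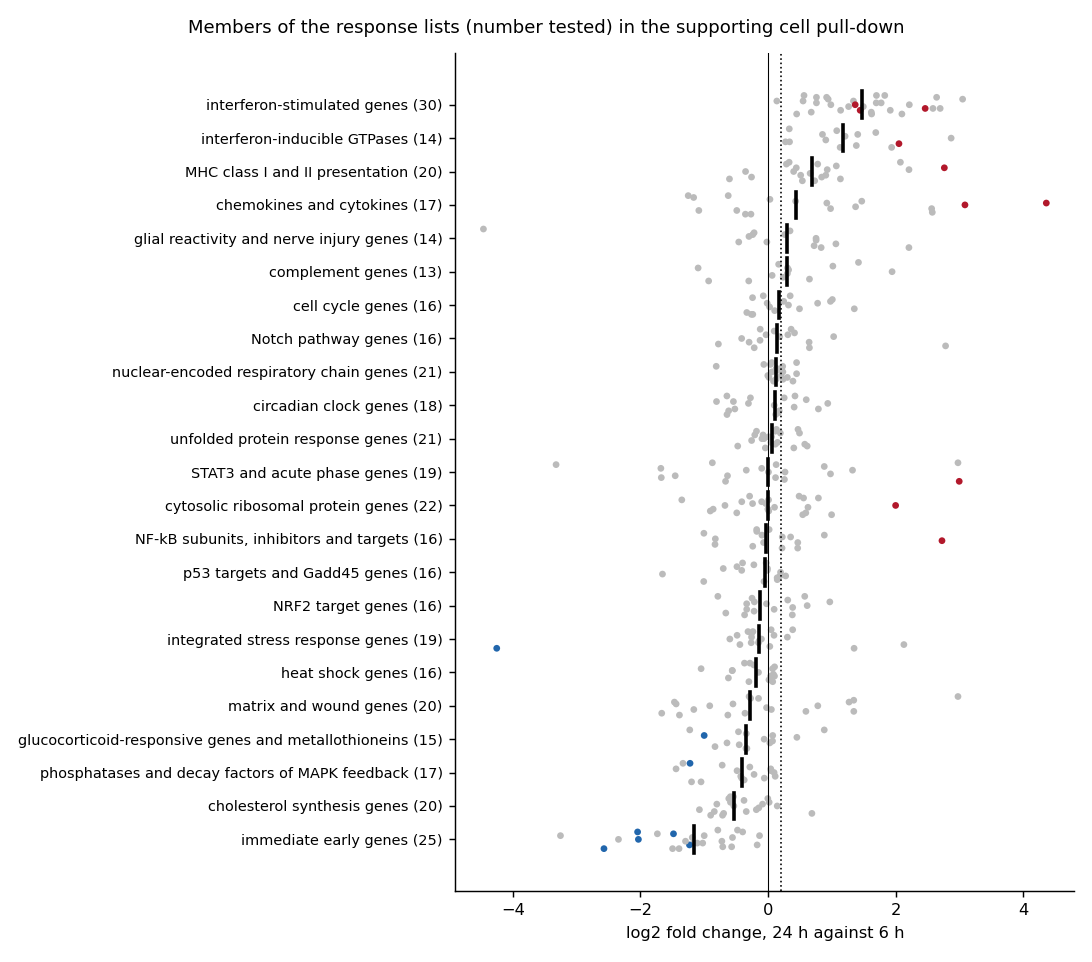
Log2 fold change, 24 h against 6 h, of every tested member of the response lists, 1 list per row with the number tested in brackets. Grey points did not pass, red points were called higher and blue points called lower at 24 h, black bars are list medians, and the dotted line is the median of all genes. Interferon-stimulated genes (median 1.47) and immediate early genes (median −1.17) form the ends of the range.

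In the whole cochlea the same contrast gave medians close to those of the pull-down for some lists and not for others. There, of 14153 genes, 251 were called higher (1.77%) and 52 lower (0.367%), and 2170 (15.3%) and 375 (2.65%) at an unadjusted p under 0.05. The median of immediate early genes was −1.17 in the pull-down and −1.25 in the whole cochlea, where 11 of 22 were called lower. The median of interferon-stimulated genes was 1.47 in the pull-down and 1.79 in the whole cochlea, where 17 of 29 were called higher. Cholesterol genes had −0.54 in the pull-down and 0.17 in the whole cochlea, chemokines and cytokines had 0.43 and 0.95, and macrophage markers had 0.00 and 1.11. Other lists lay closer, such as heat shock genes with −0.19 and −0.20 and the NF-kB list with −0.03 and −0.04. The 2 kinds of library come from the same homogenates, and none of these list members passed the test of the difference.

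The test of the difference between pull-down and whole cochlea called 12 genes higher (0.0848%) and 6 lower (0.0424%) of 14153. With the homogenate as a block it called 0, with 628 higher and 642 lower at an unadjusted p under 0.05, so no gene passed in both fits. Without the block, 554 were higher (3.91%) and 580 lower (4.10%) at an unadjusted p under 0.05. Of the 18 genes, 12 were pseudogenes and 2 were protein-coding. Rps15a-ps4, a pseudogene of a ribosomal protein whose reads its parent may share, had 44.9, 42.4 and 75.1 TPM at 24 h, against 0.514 and 0.623 TPM at 6 h in the pull-down. In the whole cochlea it had 66.2, 67.1 and 57.2 TPM at 24 h, against 91.1 and 74.9 TPM at 6 h (difference 5.47 ± 0.47, limma adjusted p = 0.00560). Gm16373, another pseudogene, was at 69.4, 79.8 and 53.4 TPM at 24 h and 92.0 and 162 TPM at 6 h in the pull-down, and its whole-cochlea values of 81.4, 67.8 and 48.3 TPM at 24 h stood against 0.553 and 0 TPM at 6 h (difference −6.58 ± 0.80, limma adjusted p = 0.0165). Its difference thus came from the whole-cochlea side. Higd1b had 11.9, 5.36 and 7.57 TPM at 24 h and 9 and 6.41 TPM at 6 h in the whole cochlea (difference 3.95 ± 0.60, limma adjusted p = 0.0471).

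**Figure D4:**
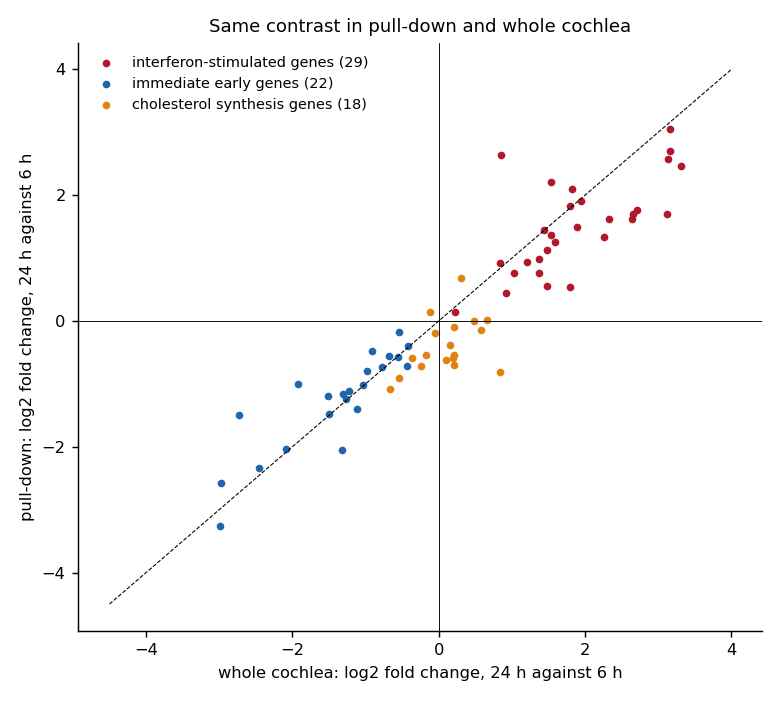
Log2 fold change, 24 h against 6 h, in the supporting cell pull-down (vertical axis) and in the whole cochlea (horizontal axis) for genes of 3 lists tested in both, with the line of equal change dashed. Interferon-stimulated genes (red, median 1.47 and 1.79) lie at upper right and immediate early genes (blue, median −1.17 and −1.25) at lower left. Most cholesterol synthesis genes (orange) lie below the line.

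Against the outer hair cell pull-down, 24 genes had a higher 24 h against 6 h change in supporting cells (0.161% of 14934) and 0 a lower one by limma, with 1126 higher (7.54%) and 206 lower (1.38%) at an unadjusted p under 0.05. After median-of-ratios scaling these were 835 higher and 382 lower. Without 1 of the libraries the total ranged from 4 to 129. Of the 24 genes, 14 were protein-coding. Bhlhe23 (difference 4.15 ± 0.71, limma adjusted p = 0.0486) had at most 1.82 TPM in the 6 outer hair cell libraries after noise. Lypd2 had 16.9, 13 and 17.8 TPM at 24 h and 16.5, 16 and 18.1 TPM at 6 h in outer hair cells (difference 4.55 ± 0.72, limma adjusted p = 0.0326), and Tmod4 also lay above 0 in all 6 (difference 3.33 ± 0.51, limma adjusted p = 0.0270). For these the outer hair cell values overlap between the times, while both supporting cell libraries at 6 h are listed at 0. Pcdhb8, a clustered protocadherin of cell adhesion, had 3.72, 10.0 and 4.54 TPM at 24 h and is listed at 0 in both 6 h libraries of supporting cells. In outer hair cells it had 0, 0.132 and 0.513 TPM at 24 h, against 4.36, 1.97 and 8.48 TPM at 6 h (difference 4.88 ± 0.63, limma adjusted p = 0.0136), so the values ran in opposite directions. Snord104, a small nucleolar RNA, had 469, 497 and 604 TPM at 24 h, against 0 and 4.52 TPM at 6 h in supporting cells (difference 8.04 ± 0.88, limma adjusted p = 0.00586). No member of the immediate early or interferon lists passed, and their medians in outer hair cells were −0.89 and 1.57.

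None of the 13 cell type lists, supporting cells included, held a called gene in limma. Of all genes tested 0.570% were called higher and 0.102% lower, so lists of 2 to 22 tested genes would hold few. In the supporting cell list 7 of 22 members lay above and 3 below both 6 h libraries, against 24.9% and 7.77% of all genes. Schwann and satellite glia markers summed to 6717, 7540 and 10606 TPM at 24 h, against 8936 and 10503 TPM at 6 h. The times overlap, and both 6 h sums exceeded those of the supporting cell list. Macrophage markers summed to 233, 221 and 235 TPM at 24 h, against 206 and 255 TPM at 6 h, and 103 and 143 TPM without noise. In the whole cochlea the macrophage sum was 325, 443 and 486 TPM at 24 h, against 153 and 126 TPM at 6 h. The pull-down sums of macrophages thus overlap between the times, while those of the whole cochlea do not. Neutrophil markers ranged from 96.0 to 151 TPM at 24 h and were 258 and 44.0 TPM at 6 h, with Ly6g at 0 in 1 library at 24 h and both at 6 h. The part of these cells in the chemokine and interferon values was not tested, and in such bulk samples fewer cells of a type and less RNA per cell cannot be told apart.

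**Figure D5:**
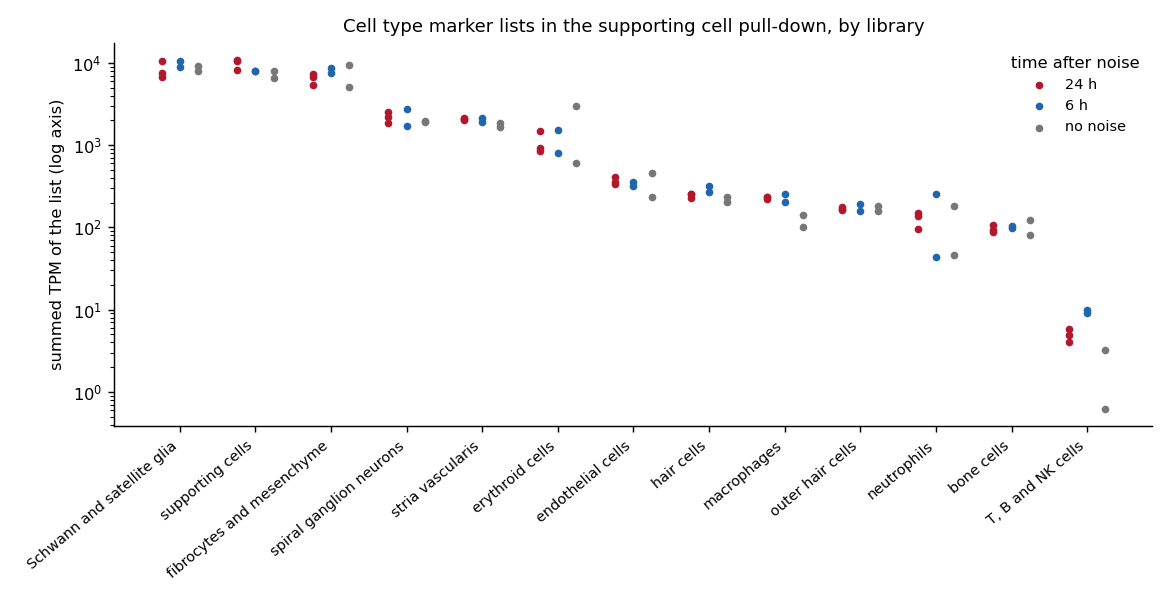
Summed TPM (log axis) of each cell type marker list in each pull-down library, at 24 h (red), at 6 h (blue) and without noise (grey). Supporting cell and Schwann cell lists hold the highest sums together with fibrocytes and mesenchyme. The macrophage sums at 24 h (221 to 235 TPM) lie within those at 6 h (206 and 255 TPM).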

How the data were processed

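RNA sequencing libraries of pull-downs and whole cochleae were used as TPM, which the authors deposited per gene and library. TopHat and the GRCm38 build are named per the submitters' processing notes, while the sources used here do not give the read counter, its annotation, tool versions or strandedness. All 43947 identifiers matched GENCODE M21, which gave positions and gene types. TPM keeps no read depth, so the depth is unknown and no counting interval is given. Genes with at least 1 TPM in at least 2 of the 5 noise libraries were kept, values were turned into log2(TPM + 1), and limma 3.58.1 (R 4.3.3, trended variance) was fitted over the 7 pull-down libraries of the Sox2 strain, which share the spread, with Benjamini-Hochberg adjustment over all tested genes. Differences were tested in models over the Sox2 libraries and over the pull-downs of both strains. The pull-down model, both models of difference and the block were tested on simulated data. Those data held only genes above 0 in every library, with changes set in genes of higher level. Genes listed at 0 at one time were thus not covered. Pull-down and whole-cochlea libraries of 1 homogenate are paired by design. At 24 h each pull-down deviated most with its own whole-cochlea library (r = 0.143, 0.148 and 0.214). With 2 libraries at 6 h the deviations from the mean mirror each other. There r was 0.0494 with the own and −0.0494 with the other whole-cochlea library, near 0 and the same for both homogenates. The genes named are up to 12 of the largest called changes in each direction with a mean of at least 5 TPM and no overlap between groups, leaving out predicted (Gm and Rik) genes, pseudogenes and small RNAs, then fixed genes, up to 4 members per list with the smallest p, and examples from the tests of difference. The interaction genes Higd1b, Lypd2, Tmod4 and Bhlhe23 were picked there after their values were seen. Genes and lists were chosen with earlier results of these data known. Alternatives were another pseudocount (0.1), other filters, other scalings, and single libraries left out.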

Additional observations from a re-analysis of the deposited data

Results flagged for a closer look

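Genes whose 24 h against 6 h change differed between the supporting cell pull-down and another material by a test of the difference itself in limma are given here as values. Against the whole cochlea the differences were 5.47 for Rps15a-ps4, 5.66 for Gm5641, −6.58 for Gm16373 and 3.95 for Higd1b. None of these passed with the homogenate as a block. Against the outer hair cell pull-down the differences were 4.67 for Gm13199, 8.04 for Snord104, 4.88 for Pcdhb8, 3.33 for Tmod4, 4.55 for Lypd2, 4.15 for Bhlhe23 and 5.18 for Rps15a-ps4. Groups of 2 or 3 libraries were too small for a test of single outlying libraries.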

How the results depend on the processing

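The pull-down comparison called 112 genes (95 higher, 17 lower), and the alternatives did not always call the same genes. Its count was 160 with a pseudocount of 0.1 (148 higher, 12 lower), 23 without a filter (18 and 5), 49 with a mean of at least 5 TPM (44 and 5), 67 with median-of-ratios scaling (50 and 17) and 93 with the 5 noise libraries alone (90 and 3). With 1 library left out it ranged from 12 to 99, with 12 to 94 higher and 0 to 6 lower. No paired analysis was possible because nothing in the labels ties a 24 h pull-down to a 6 h one. Replicate number 2 occurs at both times, but the labels do not say that equal numbers are matched. The difference from the whole cochlea called 18 genes (12 and 6), 35 with a pseudocount of 0.1 (18 and 17), 22 without a filter (11 and 11), and with the homogenate as replicate block 0 (0 higher, 0 lower). With 1 library or homogenate left out it ranged from 2 to 447, with 2 to 182 higher and 0 to 265 lower. The difference from outer hair cells called 24 (24 and 0), 77 with a pseudocount of 0.1 (76 and 1), 48 without a filter (36 and 12), 12 with a mean of at least 5 TPM and 19 with median-of-ratios scaling (18 and 1). With 1 library left out it ranged from 4 to 129, with 4 to 126 higher and 0 to 4 lower. The cause of these shifts was not tested. A group of 1 library left at 6 h is assumed to vary like the others. The unknown depth limits genes near 0.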
